A study of Mus musculus with 8 samples.

Results

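The nuclear genes of the respiratory chain code for the parts of the mitochondrial machine that are made in the cytosol and imported. They were chosen on the arrays by name: gene symbols that begin with Ndufa, Ndufb, Ndufc, Ndufs or Ndufv (complex I, without the Ndufaf assembly factors), Sdha to Sdhd (complex II), Uqcr or Cyc1 (complex III), Cox4i, Cox5, Cox6, Cox7 or Cox8 (complex IV) and Atp5 (complex V). Pseudogene symbols were dropped and the brightest probe set of each gene was taken. This gave 83 genes of the 19933 measured, with 36 in complex I, 4 in complex II, 9 in complex III, 17 in complex IV and 17 in complex V. Ndufa4 is counted in complex I by its name, though it is known as a subunit of complex IV. The rule reads names and brightness and no difference between groups, and it was set with earlier results of these data known. Of these 83 genes, 80 had a mean level above that of the median gene, and the other 3 are testis isoforms of complex IV; no filter on low values was applied, so all 83 were tested.

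The arrays were run to look for transcripts targeted by a microRNA during the heart growth that follows forced angiogenesis. Left ventricular RNA of 8 mice of strain C57/Bl6, 11 weeks old, was measured with 1 Affymetrix gene array for each heart, with 3 hearts in control, 2 in PlGF and 3 under the label PlGF/RGS4. PlGF, placental growth factor, and RGS4, a brake on G protein signalling, were under a TET-OFF system whose transactivator tTA was driven by the αMHC promoter of cardiomyocytes, so that doxycycline in the diet kept them silent until 5 weeks of age and normal chow then released them for 6 weeks. Controls were littermates that carried a single transgene, which the labels do not specify. Each array is named as a biological replicate, and the sex of the mice is not stated.

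The label PlGF/RGS4 was not borne out by the probe sets of the transgenes, and whether these read the transcripts of that line was not tested. Pgf, the gene of PlGF, had an intensity of 211, 349 and 387 in control against 4136 and 917 in PlGF, with 300.0, 229 and 211 in those labelled PlGF/RGS4. The replicate of PlGF with more Pgf is replicate 1. Rgs4 lay between 187 and 282 in all 8 arrays. Xist, which is transcribed from the inactive X chromosome, was between 26.9 and 50.8 in control replicate 2, PlGF replicate 1 and PlGF/RGS4 replicate 2 and between 2581 and 2958.5 in the other 5, so each group holds an array of low Xist. The arrays had median intensities from 111 to 115, and 57.6% of probe sets had exactly the same value on at least 2 arrays. This was so for 28 of the 83 respiratory chain genes, among them the brightest.

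As background, complex I takes electrons from NADH and complex II takes them from succinate. Both pass them to ubiquinone, complex III hands them on to cytochrome c, and complex IV gives them to oxygen. Complexes I, III and IV pump protons, and complex V, the ATP synthase, lets the protons flow back to make ATP. Heart muscle draws most of its energy from this chain, and its nuclear genes are known targets of the factors NRF1, GABP (an ETS factor) and ERRα with the coactivators PGC-1α and PGC-1β.

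Promoters are shown for the 3 genes that passed the test in PlGF hearts, Ndufb8, Ndufb10 and Atp5k, and for Ndufs6, which came next by adjusted p-value. Each is the run of 250 bases before the RefSeq start of the gene, 5′ to 3′ on the strand of the gene, on GRCm38.p6. Ndufb8 is at chr19:44555443-44555692, Ndufb10 at chr17:24724424-24724673, Atp5k at chr5:108434400-108434649 and Ndufs6 at chr13:73328483-73328732, all on the minus strand. Capitals mark matches to any of the motifs searched.
Ndufb8: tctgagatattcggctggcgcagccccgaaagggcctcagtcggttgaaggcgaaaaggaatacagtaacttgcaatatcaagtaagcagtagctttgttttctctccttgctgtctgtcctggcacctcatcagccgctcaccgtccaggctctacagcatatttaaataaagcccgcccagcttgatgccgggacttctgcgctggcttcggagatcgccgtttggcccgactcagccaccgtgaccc
Ndufb10: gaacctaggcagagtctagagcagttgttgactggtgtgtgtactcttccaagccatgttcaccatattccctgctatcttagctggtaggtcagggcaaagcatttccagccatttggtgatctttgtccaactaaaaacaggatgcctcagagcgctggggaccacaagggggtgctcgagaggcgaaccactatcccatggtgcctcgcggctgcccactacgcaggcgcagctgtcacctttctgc
Atp5k: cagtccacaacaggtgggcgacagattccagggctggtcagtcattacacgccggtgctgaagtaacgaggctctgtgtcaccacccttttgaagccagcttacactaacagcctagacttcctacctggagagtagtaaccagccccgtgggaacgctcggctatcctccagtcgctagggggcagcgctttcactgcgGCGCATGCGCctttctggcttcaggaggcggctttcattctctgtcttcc
Ndufs6: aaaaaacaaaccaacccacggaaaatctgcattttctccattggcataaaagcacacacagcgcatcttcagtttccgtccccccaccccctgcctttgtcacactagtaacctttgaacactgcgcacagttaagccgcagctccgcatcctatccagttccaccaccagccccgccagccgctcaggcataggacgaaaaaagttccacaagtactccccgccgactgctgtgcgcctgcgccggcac

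The motifs were the core of NRF1 (GCATGCGC), the core of ETS factors (CCGGAAG), the core of YY1 (AAGATGGCG) and an ERR element (TCAAGGTCA), each searched without mismatch on both strands of a window of 300 bases, from 250 before the start to 50 after it. RefSeq held 72 such windows for 67 of the 83 genes. The NRF1 core was in 10 of the 72 (13.9%) against 2.71% of all 32851 windows, and the ETS core in 17 (23.6%) against 8.86%. The YY1 core was in 7 (9.72%) against 1.4%, and the ERR element in 2 (2.78%, Atp5g3 and Sdhd) against 0.423%. In the promoter of Atp5k the NRF1 core is matched on both strands by overlapping letters, from -50 to -41 relative to the start. The same gene has an ETS core after the start, and Ndufs6 has a YY1 core after the start, both outside the printed run. The windows of Ndufb8 and Ndufb10 held none of the letters searched. A match of letters is a description and not a site of binding.

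In PlGF hearts 3 of the 83 genes fell and none rose, and most of the other 80 leaned down without passing the test. Genes called lower made up 0.748% of all 19933. The median log2 difference from control was -0.21 for the respiratory chain genes and -0.03 for all genes, and 78 of the 83 lay below 0, as did 58.7% of all genes. At an unadjusted p under 0.05, 44 of the 83 (53%) were lower, against 11.7% of all genes, and 0 were higher, against 10.9% of all genes. In 49 of the 83 both PlGF arrays lay below every control array, which was so for 19.5% of all genes. In 0 did both lie above, against 14.3% of all genes. The 8 arrays come from bulk tissue, in which fewer cells of a type and less RNA per cell cannot be told apart.

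Ndufb8, an accessory subunit of the membrane arm of complex I, had an intensity of 3279, 3338 and 3264 in control against 2399 and 2746 in PlGF, with 3113, 3119 and 3087 in those labelled PlGF/RGS4. Both PlGF arrays were below the other 6, and the arrays labelled PlGF/RGS4 were below every control array too. It fell by 0.36 ± 0.063 (SE) on the log2 scale in PlGF against control (limma, adjusted p = 0.0397). Ndufb10, another accessory subunit of the same arm, had 1122.5, 1072 and 1131 in control against 679.5 and 879.7 in PlGF, with 996, 996 and 993 in those labelled PlGF/RGS4. The 3 groups did not overlap, with PlGF lowest. It fell by 0.52 ± 0.10 (adjusted p = 0.0459), the largest difference of the 83 genes. Atp5k, subunit e of the membrane part of complex V, which takes part in holding ATP synthases together in dimers, had 911.5, 1031 and 1084 in control against 695 and 789 in PlGF, with 964, 999.5 and 984 in those labelled PlGF/RGS4. Here the arrays labelled PlGF/RGS4 lay within the range of control. Atp5k fell by 0.44 ± 0.087 (adjusted p = 0.048).

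The 3 calls depended on single arrays. With PlGF replicate 2 left out, 63 of the 83 genes were called lower and 1 higher, where 15.6% of all genes were called lower and 14.1% higher. With PlGF replicate 1 left out Ndufb10 alone was called. Without any 1 of the 3 control arrays or of the 3 arrays labelled PlGF/RGS4, 0 were called. In those fits only 1 to 13 of all 19933 genes were called lower, against 149 with all 8 arrays. A fit with the single PlGF array takes its spread from the other groups.

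**Figure D1:**
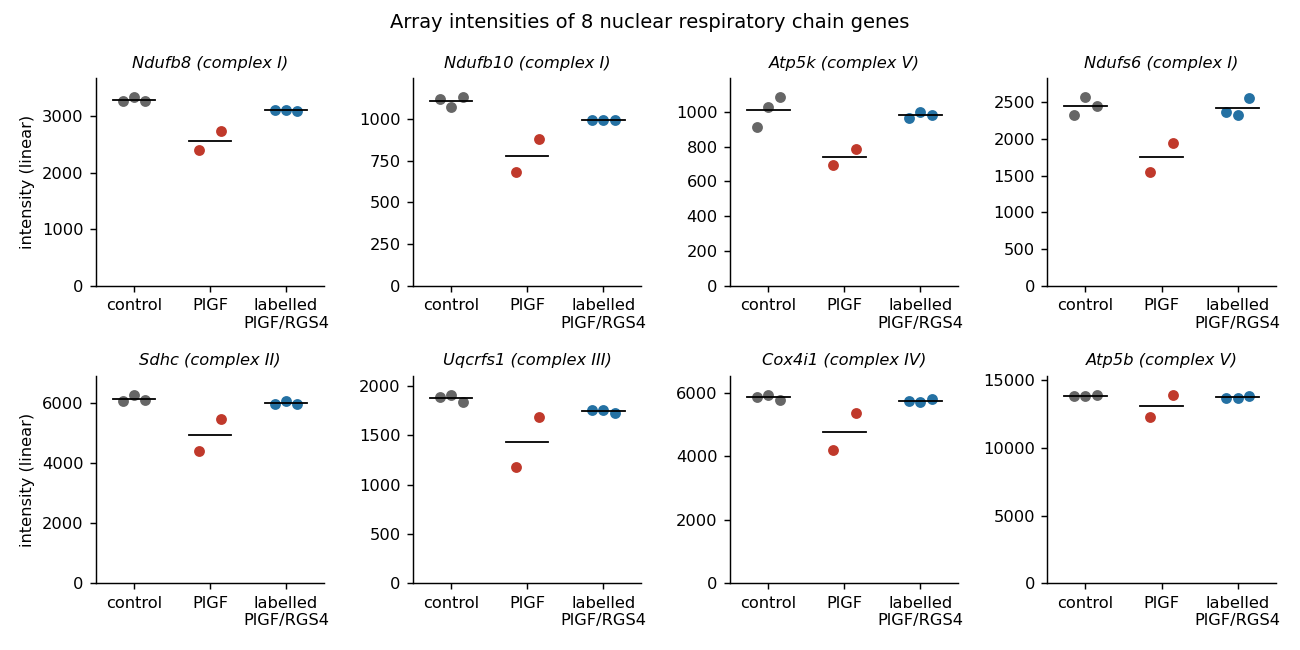
Linear array intensity (vertical axes, from 0) of 8 respiratory chain genes in control (grey), PlGF (red) and the arrays labelled PlGF/RGS4 (blue); each point is 1 array and each line a group mean. In Ndufb8, Ndufb10 and Atp5k both PlGF arrays lie below the other 6, while in Atp5b 1 PlGF array lies at the level of control.

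The 2 PlGF hearts differed in the depth of the shift. Set against the control mean, the median log2 difference of the 83 genes was -0.31 in PlGF replicate 1 and -0.073 in PlGF replicate 2, and it was -0.02, -0.01 and -0.01 in the arrays labelled PlGF/RGS4. In replicate 1, 78 of the 83 genes were below every control array, against 43.5% of all genes. In replicate 2, 50 were, against 29% of all genes. Of the 83, 79 were lower in replicate 1 than in replicate 2, against 52.8% of all genes, and replicate 1 was the lowest of the 8 arrays in 75. Without PlGF replicate 1 the median difference of the 83 genes was -0.073, and without PlGF replicate 2 it was -0.31. PlGF replicate 1 is also the array with more Pgf and with low Xist, and the part of either in the result was not tested beyond a fit with Xist as a covariate, in which the median was -0.19 and Ndufb10 alone was called.

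**Figure D2:**
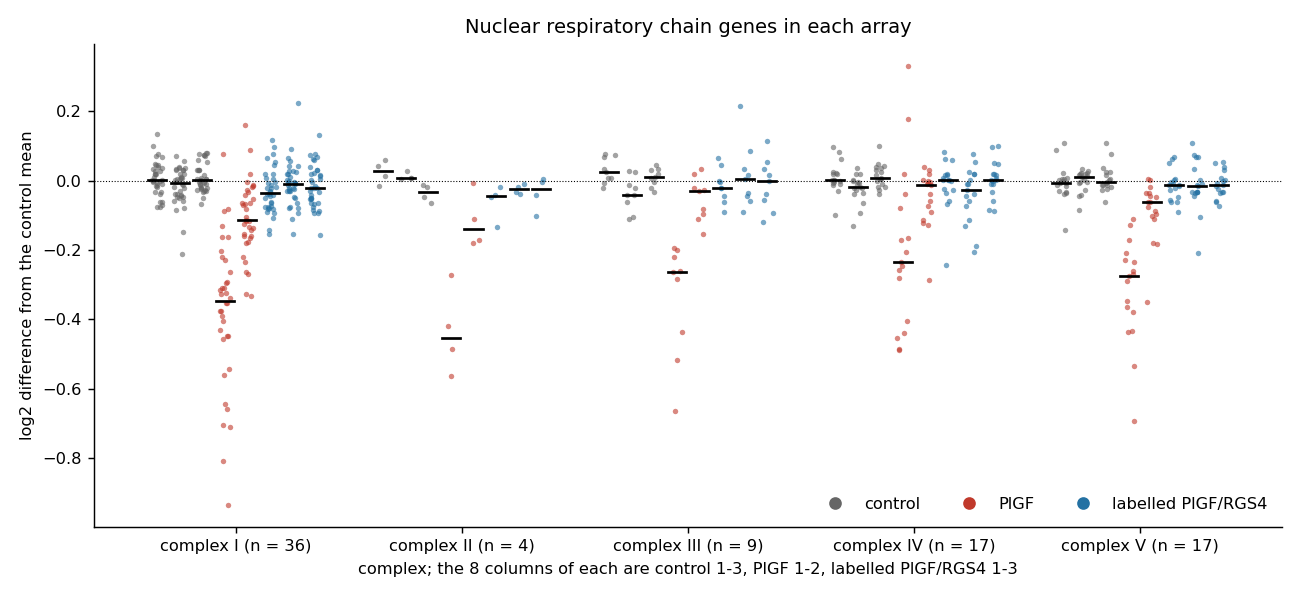
Log2 difference from the control mean (vertical axis) of every respiratory chain gene in each of the 8 arrays, by complex; each point is 1 gene and each black line the median of a complex in 1 array. In PlGF replicate 1 the medians lie between -0.45 for complex II and -0.23 for complex IV, and in PlGF replicate 2 between -0.14 and -0.01.

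Complex I is the largest of the complexes and held 2 of the 3 called genes. In PlGF against control 2 of its 36 genes were called lower, against 0.748% of all genes. An unadjusted p under 0.05 was found in 23, all of them lower, against 11.7% of all genes lower. The arrays did not overlap in 24, all of them lower, against 19.5% of all genes lower. The median of complex I was -0.23. Ndufs6, a zinc-binding accessory subunit of the peripheral arm, had 2324, 2569.9 and 2456 in control against 1552 and 1951 in PlGF, with 2366, 2324 and 2563 in those labelled PlGF/RGS4. The PlGF arrays lay below all others and the other groups overlapped, with a difference of -0.49 ± 0.10 and an adjusted p of 0.0557. Ndufb7, an accessory subunit of the membrane arm, had 2305, 2108 and 2278 in control against 1682 and 1895 in PlGF, with 2018.5, 2133 and 2099 in those labelled PlGF/RGS4, with a difference of -0.32 ± 0.070 (adjusted p = 0.0626). Both passed where each array was centred on its median. At the other end was Ndufa4l2, a relative of Ndufa4 that is known to be induced by low oxygen and is not a core part of the complex, with a difference of 0.12 ± 0.089 (adjusted p = 0.462).

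Among the core subunits of complex I are those that carry the flavin and the iron-sulphur clusters that move electrons from NADH to ubiquinone. Of 7 core genes listed, 6 were analysed here. Their differences in PlGF ran from -0.50 for Ndufs1 to -0.07 for Ndufv2, with a median of -0.25. Of the 6, none was called and 3 were lower at an unadjusted p under 0.05. Ndufs1, the largest of them, had 4468, 4534 and 4514 in control against 2357 and 4308 in PlGF, with 4284, 4466 and 4508.5 in those labelled PlGF/RGS4. Its difference of -0.50 ± 0.21 rested on PlGF replicate 1, and without that array the PlGF value was within the range of the arrays labelled PlGF/RGS4. The X-linked Ndufa1, chosen after its values were seen, had 1125, 1094 and 1205 in control against 697.5 and 946 in PlGF, with 1203, 1117 and 1187 in those labelled PlGF/RGS4. In each group the array of low Xist had the lowest value of Ndufa1. This was not so in Ndufb11 and Cox7b, which are also X-linked. Control replicate 2, of low Xist, had 7563 in Ndufb11 against 7558 and 7056 in the other controls. In Cox7b it had 11060.5 against 10922 and 11451. The difference of Ndufa1 was -0.49 ± 0.12 (adjusted p = 0.076), and -0.44 with Xist as a covariate (adjusted p = 0.0567).

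Complex II, succinate dehydrogenase, is also an enzyme of the citric acid cycle and has no mitochondrially encoded subunit. Of its 4 genes 3 had an unadjusted p under 0.05, all lower, against 11.7% of all genes lower. In complex II 0 were called, against 0.748% of all genes called lower, and its median was -0.28. Sdhc, a membrane anchor, had 6068, 6255 and 6084 in control against 4384 and 5452 in PlGF, with 5959.6, 6058 and 5959.6 in those labelled PlGF/RGS4, a difference of -0.33 ± 0.087 in PlGF (adjusted p = 0.0879). Sdhd, the other anchor, had 5016, 4896 and 4719.9 in control against 4039 and 4303 in PlGF, and Sdhb, the iron-sulphur subunit, had 6226, 6009 and 5713 against 4046 and 5533. In these 3 genes both PlGF arrays lay below every control array, which was so for 19.5% of all genes. Sdha, the flavin subunit, had 9237, 9170.1 and 9038 in control against 6837 and 9102.5 in PlGF, so that replicate 2 lay within the range of control. The differences of Sdhd, Sdhb and Sdha were -0.23 ± 0.060, -0.34 ± 0.12 and -0.21 ± 0.11.

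In complex III 4 of 9 genes had an unadjusted p under 0.05, all lower, against 11.7% of all genes lower. Of the 9, 0 were called, against 0.748% of all genes called lower, and their median was -0.17. The core holds the subunits that carry or support the redox centres. All 4 measured core genes had both PlGF arrays below every control array, against 19.5% of all genes. Uqcrfs1, the Rieske iron-sulphur protein, had 1885.5, 1907 and 1833 in control against 1182 and 1684 in PlGF, with 1759.5, 1759.5 and 1725 in those labelled PlGF/RGS4. As in Ndufb10 the groups did not overlap and the arrays labelled PlGF/RGS4 lay between the others, with -0.41 ± 0.13 in PlGF (adjusted p = 0.126). Uqcrc1, a core protein, had 7001, 6907 and 7009.5 in control against 5152 and 6516 in PlGF, a difference of -0.27 ± 0.092, and Cyc1, cytochrome c1, had -0.20 ± 0.066. Uqcrh, the hinge protein, had -0.17 ± 0.068. The smallest difference was that of Uqcrb, which binds ubiquinone, at -0.09 ± 0.076, and it was 0.02 without PlGF replicate 1.

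Complex IV had the smallest share of genes at an unadjusted p under 0.05, a difference between complexes that was not tested. Of its 17 genes 5 had an unadjusted p under 0.05, all lower, against 11.7% of all genes lower. In complex IV 0 were called, against 0.748% of all genes called lower, and its median was -0.14. Cox4i1, the main isoform of subunit 4, which takes part in regulation by ATP, had 5854, 5932 and 5774 in control against 4185 and 5359.6 in PlGF, with 5753.5, 5695 and 5812 in those labelled PlGF/RGS4, a difference of -0.31 ± 0.095 (adjusted p = 0.124). Cox5b, a zinc-binding subunit, had 8424, 8416.5 and 8559 in control against 7142 and 7952 in PlGF, a difference of -0.17 ± 0.057. Both genes had PlGF arrays below all others. The testis isoforms Cox6b2 and Cox8c also had low p-values in this complex, but their intensities lay between 50.6 and 66.3 and between 66.5 and 80.1, below the level of the median gene.

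Complex IV is the part of the chain whose subunits come in tissue forms, and in 2 of 3 pairs the heart form and the form of most tissues lay on opposite sides of control in PlGF replicate 1. Cox6a2, Cox7a1 and Cox8b are the heart and skeletal muscle forms, and their partners Cox6a1, Cox7a2 and Cox8a are found in most tissues. Cox6a2 had 7195, 7702 and 8261.5 in control against 5821 and 7327 in PlGF, with 8047, 8127 and 8254 in those labelled PlGF/RGS4. Cox6a1 had 1436, 1238 and 1401 in control against 1704 and 1246 in PlGF, with 1293, 1174 and 1275 in those labelled PlGF/RGS4. The difference of Cox6a1 in PlGF, 0.10 ± 0.13 (adjusted p = 0.671), was the highest of the complex. In PlGF replicate 1 alone the muscle form was below every control array and its partner was above. Cox8b had 11139, 10751 and 11004 in control against 8000.3 and 10921 in PlGF, and Cox8a had 2684, 2672 and 2763 against 3058 and 2635, so that this pair had the same pattern in replicate 1.

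The log2 ratio of each muscle form to its partner, which compares arrays and not the levels of different probe sets, was lower in PlGF than in control by 0.34 for Cox6a2, with ratios of -0.73 in replicate 1 and 0.05 in replicate 2 relative to control. For Cox8b it was lower by 0.30, with -0.63 and 0.03. Without PlGF replicate 1 both therefore changed sign. For Cox7a1 over Cox7a2 the difference was -0.16, with -0.28 and -0.03. For Cox4i2, a form known from lung and low oxygen, over Cox4i1, it was 0.31, with 0.45 and 0.17, since Cox4i2 itself had a difference of 0.00 ± 0.077. The exact two-sided permutation p-values were 0.4, 0.3, 0.1 and 0.1, where 0.1 is the smallest that 2 arrays against 3 can give, and the lowest of the 12 values adjusted by Benjamini-Hochberg was 0.24.

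**Figure D3:**
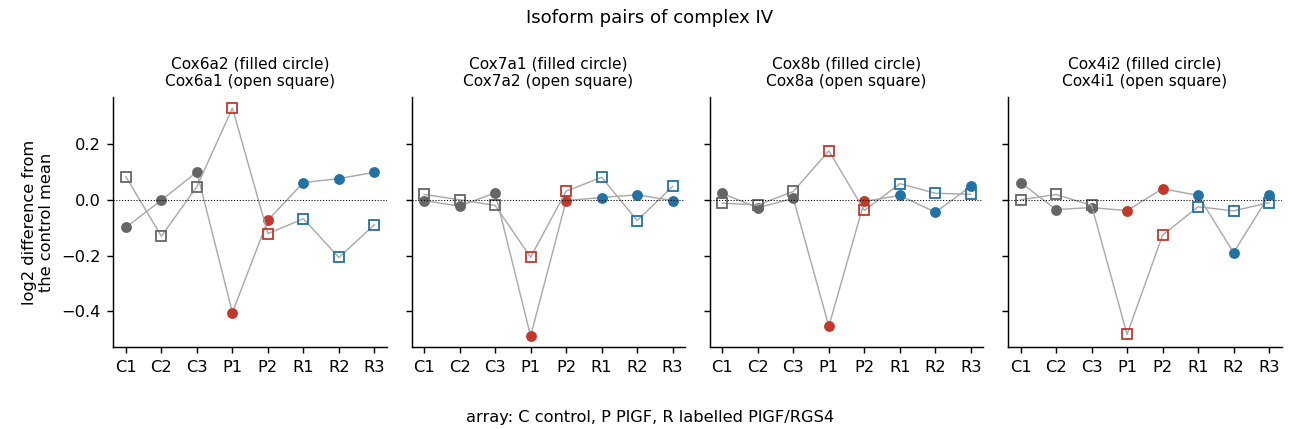
Log2 difference from the control mean (vertical axis) of the isoform pairs of complex IV in each of the 8 arrays (horizontal axis), with filled circles for the first and open squares for the second gene of a pair. In PlGF replicate 1 (P1) Cox6a2 and Cox8b lie below and Cox6a1 and Cox8a above the control arrays, and in PlGF replicate 2 (P2) the members of these pairs lie close together.

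In complex V 9 of 17 genes had an unadjusted p under 0.05, all lower, against 11.7% of all genes lower. Of the 17, 1 was called, against 0.748% of all genes called lower, and their median was -0.17. Outside the catalytic F1 part, in the stalk and the membrane part that holds the proton channel, both PlGF arrays were below every control array in 10 of 12 genes. In the F1 part they were so in 2 of 5 genes, and over all genes the share was 19.5%. The median was -0.17 in both parts of complex V, and the difference between the parts was not tested. Atp5g3, which codes for the c subunit of the proton-driven rotor, had 9326.5, 9507.5 and 9304 in control against 6945 and 8264 in PlGF, with 8811, 9174 and 8919.9 in those labelled PlGF/RGS4, a difference of -0.31 ± 0.075 (adjusted p = 0.0736). Atp5l, subunit g, had 2661, 2654 and 2880.2 in control against 2016 and 2408 in PlGF, a difference of -0.31 ± 0.081, and its 6 probe sets lay close to one another, from -0.32 to -0.29. Several probe sets of 1 gene may read near-identical copies, which are uncertain here; 17 of the 83 genes had more than 1, and in all 17 they lay on the same side of 0 in PlGF.

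Atp5mpl, a small membrane subunit, and Atp5g2, another c subunit gene, were the 2 genes of the 83 in which both PlGF arrays lay below every control array and all arrays labelled PlGF/RGS4 above. Atp5mpl had 4230.0, 4194 and 4223 in control against 3599.6 and 3925 in PlGF, with 4401, 4418 and 4372 in those labelled PlGF/RGS4. Its differences from control were -0.17 ± 0.052 in PlGF (adjusted p = 0.125) and 0.06 ± 0.046 in PlGF/RGS4 (adjusted p = 0.997), and PlGF was lower than PlGF/RGS4 by 0.23 (adjusted p = 0.096). Atp5b and Atp5d, both of the F1 part, had the smallest differences of the complex with Atp5g1, -0.08 ± 0.060 for Atp5b and -0.06 ± 0.053 for Atp5d. Atp5a1, of the same part, had -0.24 ± 0.075.

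**Figure D4:**
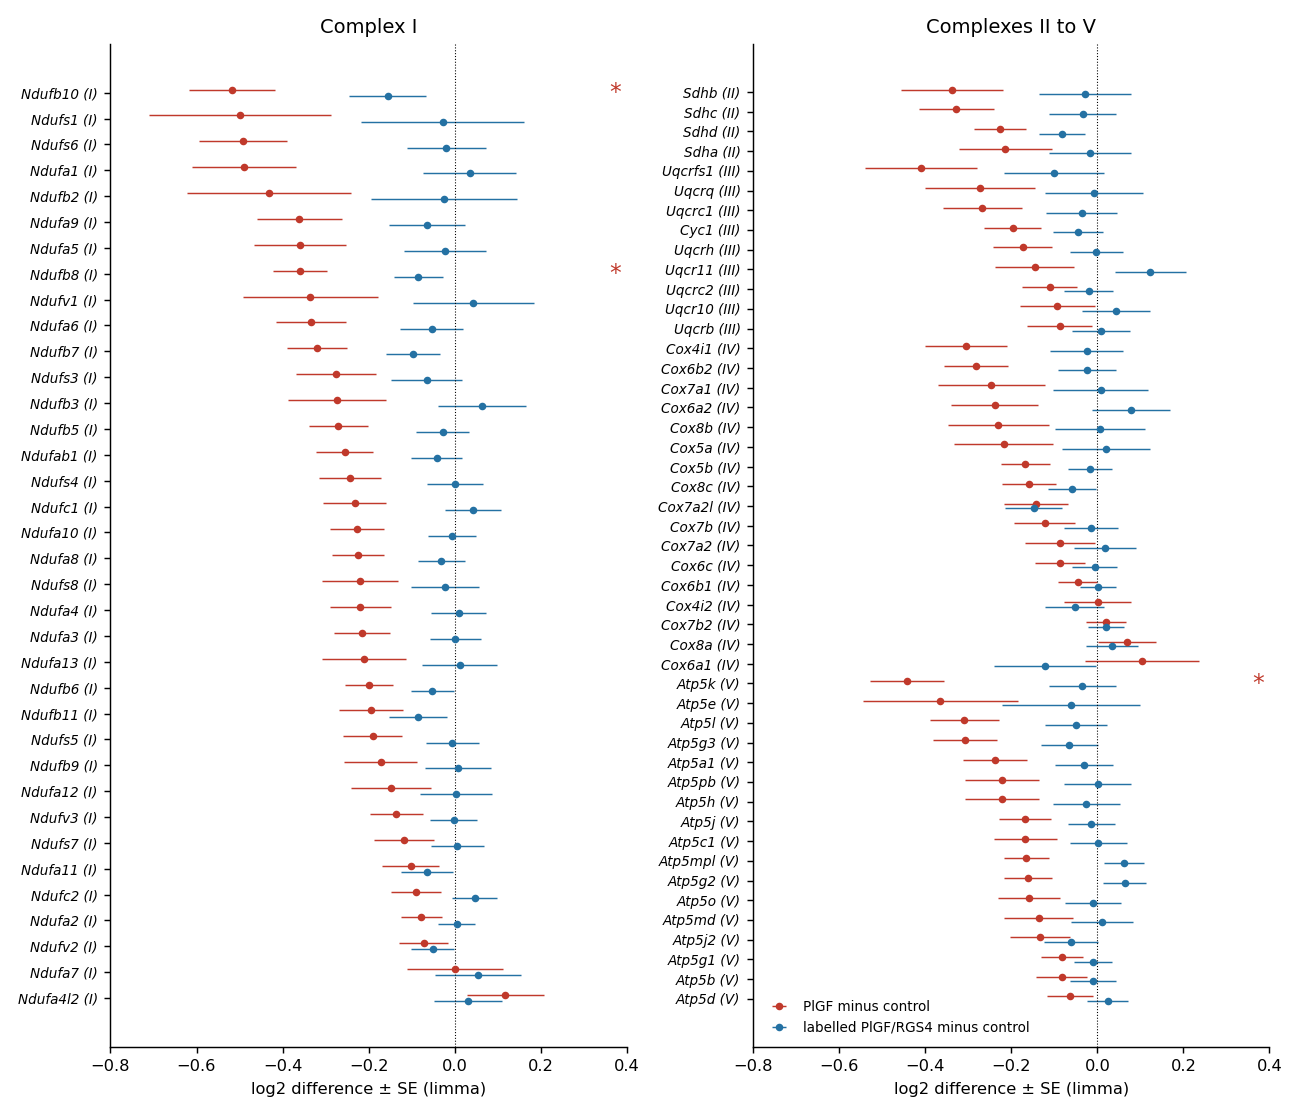
Log2 difference from control with its SE from limma (horizontal axes) for all 83 respiratory chain genes, with complex I on the left and complexes II to V on the right; red is PlGF, blue the arrays labelled PlGF/RGS4, and stars mark an adjusted p under 0.05 in PlGF. Red points lie below 0 in 78 genes, and blue points lie on both sides of 0.

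The difference was smaller in the brightest genes. The dimmest 28 genes had a median difference of -0.24, the middle 27 of -0.23 and the brightest 28, with mean intensities from 6691 to 14100, of -0.16. Over the 80 genes above the median level, Spearman's rho of mean log2 level and log2 difference was 0.267, as a description across genes that share the same 8 arrays. Values that repeat exactly between arrays occurred among the brightest genes. Cox7a1 was at 10591 in 3 arrays, 1 of them PlGF.

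The arrays labelled PlGF/RGS4 differed little from control in these genes. None of the 83 was called lower, as was 0% of all genes, and none was called higher. At an unadjusted p under 0.05, 0 were lower and 0 higher, against 2.28% of all genes lower and 2.74% higher. The median difference was -0.01, 51 of the 83 lay below 0, and the arrays did not overlap in 9 genes that were lower, against 5.85% of all genes, and in 2 that were higher, against 6.96%. The smallest p-value belonged to Cox7a2l. It had 705.5, 619 and 659.7 in control against 586 and 610.3 in PlGF, with 557, 610.3 and 622 in those labelled PlGF/RGS4. Its difference of -0.15 ± 0.067 in the arrays labelled PlGF/RGS4 (adjusted p = 0.995) stood beside -0.14 ± 0.075 in PlGF. Ndufb10 (-0.16 ± 0.089) and Ndufb7 (-0.10 ± 0.063) came next and did not pass either.

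PlGF set against the arrays labelled PlGF/RGS4 tests whether the transgenic groups differ, and it shares the PlGF arrays with the comparison above. None of the 83 genes was called lower, against 0.0853% of all genes. At an unadjusted p under 0.05, 39 were lower, against 10.6% of all genes, and 0 were higher, against 8.95%. The arrays did not overlap in 53 genes, all lower, against 19.9% of all genes lower and 12.6% higher, and the median was -0.20. The smallest adjusted p-values were 0.0822 for Atp5k (-0.41 ± 0.087) and 0.0848 for Ndufs6 (-0.47 ± 0.10). Without PlGF replicate 2, 63 genes were called lower, where 15% of all genes were called lower and 13% higher, and without PlGF replicate 1 the median was -0.062.

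Other genes that the chain needs were read in the same way from lists made by name. Assembly factors build the complexes without staying in them. In PlGF 3 of the 42 measured fell, against 0.748% of all genes, with a median of -0.20. At an unadjusted p under 0.05, 20 were lower, against 11.7% of all genes. At the same threshold 1, Cox19, was higher, against 10.9% of all genes. Its difference of 0.59 ± 0.15 (adjusted p = 0.084) was the largest of the list. Sdhaf4, which helps to assemble complex II, had 433.5, 436 and 472 in control against 313 and 349 in PlGF, with 433, 462 and 411.5 in those labelled PlGF/RGS4. It fell by 0.43 ± 0.076 (adjusted p = 0.0397). Ttc19, needed for the maturation of complex III, had 538, 528 and 589 in control against 406 and 448 in PlGF and fell by 0.37 ± 0.067 (adjusted p = 0.0421). Ndufaf5, a complex I assembly factor, fell by 0.24 ± 0.047 (adjusted p = 0.0474), with 157 and 151 in PlGF against 179.9 to 186 in control. Its arrays labelled PlGF/RGS4, at 159, 163 and 159, were also below every control array, with -0.19 ± 0.042 (adjusted p = 0.808). The calls of Sdhaf4, Ttc19 and Ndufaf5 were lost in 14, 12 and 14 of 20 alternatives, among them the removal of any single array other than PlGF replicate 2. None of the 42 was called in the arrays labelled PlGF/RGS4, where 4 had an unadjusted p under 0.05, all lower, against 2.28% of all genes.

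Ubiquinone carries the electrons between complexes I or II and complex III. None of the 11 measured genes of its synthesis was called in PlGF, but all 11 lay below 0, as did 58.7% of all genes. At an unadjusted p under 0.05, 8 were lower, against 11.7% of all genes, and the median was -0.39. Coq8a, an atypical kinase of this pathway, had 3309, 3429 and 3230.5 in control against 1809 and 2949 in PlGF, a difference of -0.52 ± 0.18 (adjusted p = 0.142). The 13 electron carriers and proteins of ATP exchange had a median of -0.17 with none called. Of these, 4 were lower at an unadjusted p under 0.05, against 11.7% of all genes. Cycs, cytochrome c, had -0.05 ± 0.069. The mitochondrially encoded subunits were not analysed here.

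Among the 15 regulators of these genes none was called in PlGF, and the median was -0.17. An unadjusted p under 0.05 was found in 5, each of them lower, against 11.7% of all genes. Ppargc1a, the gene of PGC-1α, had 3031, 4519.7 and 5766 in control against 1523.5 and 2281 in PlGF, with 2796, 2460.0 and 2562 in those labelled PlGF/RGS4. Both transgenic groups lay below every control array, by -1.20 ± 0.27 in PlGF (adjusted p = 0.0646) and -0.72 ± 0.24 in PlGF/RGS4 (adjusted p = 0.945), while the controls themselves spread widely. Ppargc1b, the gene of PGC-1β, had 602, 509.5 and 670.0 in control against 383 and 409 in PlGF, with 458, 420.3 and 488 in those labelled PlGF/RGS4, with -0.58 ± 0.12 in PlGF (adjusted p = 0.0534). Here too all 5 transgenic arrays lay below control. Ppara, a receptor that drives fatty acid oxidation, had -0.97 ± 0.23 in PlGF (adjusted p = 0.0723).

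Markers of the cells in the sample moved in the PlGF arrays as well. All 12 cardiomyocyte markers were bright, as the label left ventricle requires. Their summed intensity was 148319 to 150458.5 in control, 128578 and 146606 in PlGF, and 145410.1 to 146463 in the arrays labelled PlGF/RGS4. In PlGF none was called, 11 lay below 0 and the median was -0.06. At an unadjusted p under 0.05, 3 were lower, against 11.7% of all genes. These were Ryr2 (-0.73 ± 0.21), Tpm1 (-0.30 ± 0.063) and Pln (-0.27 ± 0.11), while Mybpc3 was highest at 0.09 ± 0.094. Of 17 leukocyte markers 8 rose in PlGF, against 1.79% of all genes, with a median of 0.94. Their summed intensity was 3816 to 4059.7 in control, 13213 and 6878 in PlGF and 3430.1 to 4516 in the arrays labelled PlGF/RGS4. The natural killer and T cell gene Nkg7, with the largest difference of the list, had 50.9, 42.2 and 41.4 in control and 2059 and 618 in PlGF. The rise was not shared by all 17, of which 3 lay below 0. These were the neutrophil genes S100a9 (-0.23 ± 0.16) and S100a8 (-0.12 ± 0.25), and Cd14 (-0.01 ± 0.12). The B cell genes Cd79a (0.01 ± 0.067) and Ms4a1 (0.18 ± 0.13) were not called. Of 8 endothelial markers Cdh5 rose and 3 were below control, with Vwf lowest at -0.74 ± 0.27 (adjusted p = 0.164). The list had a median of 0.22 and summed intensities of 10804.5 to 11341 in control, 13361 and 12906 in PlGF, and 10753 to 11349 in the arrays labelled PlGF/RGS4. Fibroblast markers summed to 10987 to 11462 in control and to 14078 and 11161 in PlGF. Of the 7, 0 were called and 3 were higher at an unadjusted p under 0.05, against 10.9% of all genes. In PlGF replicate 1 Postn, at 4050 against 732 to 774 in control, and the 3 collagen genes were above every control array, while Pdgfra, Dcn and Lum were below. Without Postn the fibroblast sum was 10028 in that array, lower than the 10236 to 10688.5 of control. No marker was listed at 0, and the dimmest leukocyte marker was at 19.1 to 27.2. The 5 adipose, 7 skeletal muscle and 3 atrial markers had none called, with medians of -0.10, -0.09 and -0.10. At an unadjusted p under 0.05, 0, 2 and 1 of them were lower, against 11.7% of all genes. PlGF replicate 1, in which the respiratory chain genes were lowest, thus held the highest leukocyte sum and the lowest cardiomyocyte sum, and the highest fibroblast sum only with Postn counted, and their part in the result was not tested.

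**Figure D5:**
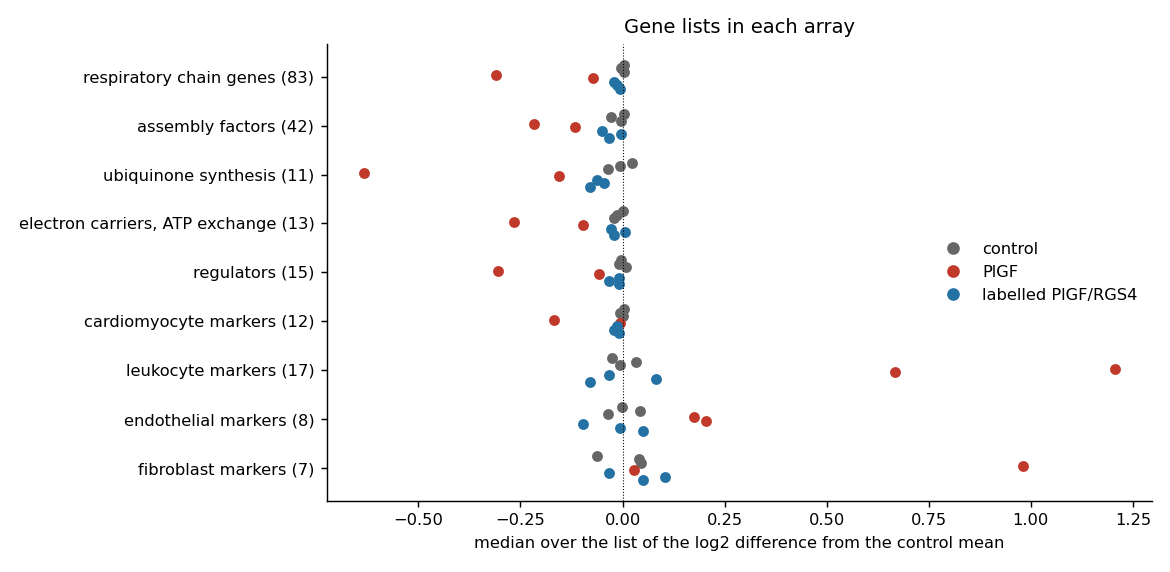
Median over each gene list of the log2 difference from the control mean (horizontal axis), 1 point per array, for the respiratory chain genes, the other genes of the pathway and the cell type markers, with the number of measured genes in brackets. PlGF replicate 1 is the leftmost point of the respiratory chain genes at -0.31 and the rightmost of the leukocyte markers at 1.21.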

How the data were processed

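Left ventricular RNA of 8 mice was labelled and hybridised to Affymetrix mouse gene 1.0 ST arrays. According to the methods, the deposited intensity values come from MAS5 with global scaling by the authors, which the submitters' processing notes also name. They are on a linear scale. Scaling by 1 factor per array would not leave 57.6% of probe sets at exactly the same value on several arrays, so steps that are not given in the sources used here may have been applied. All 8 columns entered, with 0 omitted; the number of arrays limits the precision. Gene names came from the platform annotation: of 28440 probe sets, 21780 with 1 symbol were kept, 1618 with several symbols were left out (6 of them naming a gene that fits the choice), and the brightest probe set stood for each of 19933 genes. The members and gene lists were chosen with earlier results of these data known.

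Groups were taken from the labels. Values were analysed as log2(intensity + 1), which understates differences of dim genes. The 3 groups were fitted together in limma (version 3.58.1, R 4.3.3; lmFit, contrasts.fit, eBayes) over the 8 arrays, and the 3 two-sided comparisons were adjusted by Benjamini-Hochberg over 19933 genes and called at 0.05. The fit was tested on simulated data. Standard errors are those of limma (log2). Isoform ratios had an exact two-sided permutation test over arrays, adjusted over 12 values. Named genes were those that passed, the 4 with the smallest p and the extremes in each complex, the 3 with the smallest p in PlGF/RGS4 versus control, the isoform pairs and the ranges of core subunits; regulators, pathway genes and markers named beside them were picked for illustration after their values were seen. Promoters came from RefSeq on GRCm38.p6, and 16 of the 83 genes had none there. Alternatives changed the normalization, filter, probe set rule, pseudocount, spread, test, replicate block and covariate, and left out each array. The microRNA arrays of the study were not used here.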

Additional observations from a re-analysis of the deposited data

How the results depend on the processing

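Of 20 alternatives, the count of 3 respiratory chain genes lower in PlGF than in control held at 3 with all probe sets tested and with a trended and robust prior, and was 4 with only genes above the median level. It was 5 where each array was centred on its median, which shifts the median of all genes in this comparison to -0.06, and 1 after quantile normalization (Ndufb8), with 16 added to the intensity in place of 1 (Ndufb8) and with log2 Xist as a covariate (Ndufb10). With array weights, the 2 groups alone, the methods' t-test and one-way ANOVA spread, 5, 0, 3 and 6 of all genes were called lower. The count of respiratory chain genes was 0 in each, and 32, 29, 15 and 39 were lower at an unadjusted p under 0.05. With each array left out in turn it ran from 0 to 63, and the median difference from -0.31 to -0.073. In PlGF against PlGF/RGS4 the count, otherwise 0, ran from 0 to 63 and the median from -0.305 to -0.062. The isoform ratios Cox6a2 over Cox6a1 (-0.73 to 0.048 with each array left out) and Cox8b over Cox8a (-0.63 to 0.033) changed sign, as did Cox6a1 (-0.12 to 0.33), Cox8a (-0.038 to 0.18) and Uqcrb (-0.20 to 0.02), all without PlGF replicate 1. In PlGF/RGS4 versus control 0 genes passed under all 20 alternatives. Over 30 genes followed singly, 598 values gave 492 on the same side of the threshold, 81 that no longer passed, 22 that now passed and 3 that changed sign. Ndufb8, Ndufb10 and Atp5k passed in 7, 7 and 5 of the 20. All genes split into 149 lower and 356 higher, against 250 and 341 with centred arrays. The causes were not tested.

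The labels number the replicates and do not say whether same-numbered arrays are paired. The correlation of deviations from the group means of same-numbered arrays ran from -0.217 to 0.296. In a group of 2 arrays the deviations mirror each other, so these values cannot decide on pairing. With the replicate block, 0 of the respiratory chain genes were called lower in PlGF than in control, beside 2 of all 19933 genes. Of the respiratory chain genes 34 had a lower level with an unadjusted p under 0.05, and their median was -0.21. With 2 PlGF hearts that differ, how deep the shift is in a typical PlGF heart cannot be told from these arrays.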
